A study of Mus musculus with 2 samples.

Results

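Kupffer cells are the resident macrophages of the liver, and 10 genes known for these cells or for macrophages at large were taken as a set: Csf1r, Spic, Cd163, Marco, Cd5l, C1qa, Vsig4, Clec4f, Timd4 and Adgre1. They are 10 of the 21938 protein-coding genes of the GENCODE M21 annotation. Around each gene, every binding summit of EP300 within 50 kb of any of its annotated transcription start sites (TSSs) was collected, which gave 5 summits of 26844. EP300 is a histone acetyltransferase that transcription factors bring to enhancers and promoters, and it was profiled by chromatin immunoprecipitation and sequencing (ChIP-seq). The samples were 2 replicates of 1 group, liver tissue of mice of the B6NCrl strain at age 0 days, with no second genotype, treatment or age. By their labels the replicates share biosample and donor, so the spread between them is technical as far as the labels go. The sex was not collected, and the labels do not say how many animals gave the tissue.

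Macrophages of the liver depend on signals through the receptor encoded by Csf1r, and they clear aged red cells, free haemoglobin, bacteria and complement-coated particles from the blood. In the newborn liver, which still forms blood, macrophages also sit at the centre of erythroblastic islands, where they engulf the nuclei that red cell precursors expel. The macrophage programme is set by PU.1 (gene Spi1) with IRF, CEBP, MAF and AP-1 factors, and the tissue identity of Kupffer cells is added by signals from neighbouring cells. EP300 marks enhancers in use, and many of these lie far from the gene they act on. A summit near a gene was therefore read here as a position, not as an assignment to that gene. Because the tissue was bulk liver, few macrophages and little EP300 binding per macrophage cannot be told apart.

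The optimal list holds the peaks that the authors kept, by the irreproducible discovery rate (IDR), as reproducible between replicates. Each peak has the authors' signal value, whose scale is not stated, so values were ranked and compared only within a list. In the optimal list the signal ran from 7.32 to 633 with a median of 38.3, and rank 1 is the highest. The lists hold no read counts, so the depth of the libraries is unknown. Of the marker lists of the other cell types, those of hepatocytes and erythroid cells each had 10 of 10 genes with a summit inside 10 kb. The share over all protein-coding genes was 41.0%.

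No optimal EP300 summit lay within 10 kb of the 10 Kupffer cell and macrophage genes. In the wider windows of 50 and 100 kb their counts were nearer to the shares of all genes. A summit lay within 50 kb of 5 of them, Csf1r, Spic, C1qa, Adgre1 and Cd5l, while 65.9% of all protein-coding genes had a summit this close. Within 10 kb the count was 0 of 10, against 41.0% of all genes, and within 1 kb it was 0 of 10, against 23.8%. Within 25 kb it was 2 of 10, against 54.2%, and within 100 kb it was 7 of 10, against 76.5%. No summit lay inside the body of a member gene. The median distance from a member to its nearest summit was 51.4 kb, against 18.5 kb over all genes. Adgre1 was the 1 member whose own TSS was the protein-coding TSS nearest to a summit in the window, and 41.1% of all genes held such a summit. The highest peaks of replicate 1 alone, as many as the optimal list holds, gave 2 such members. The members were chosen with earlier results of these data known, so these counts are descriptions and carry no test.

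**Figure D1:**
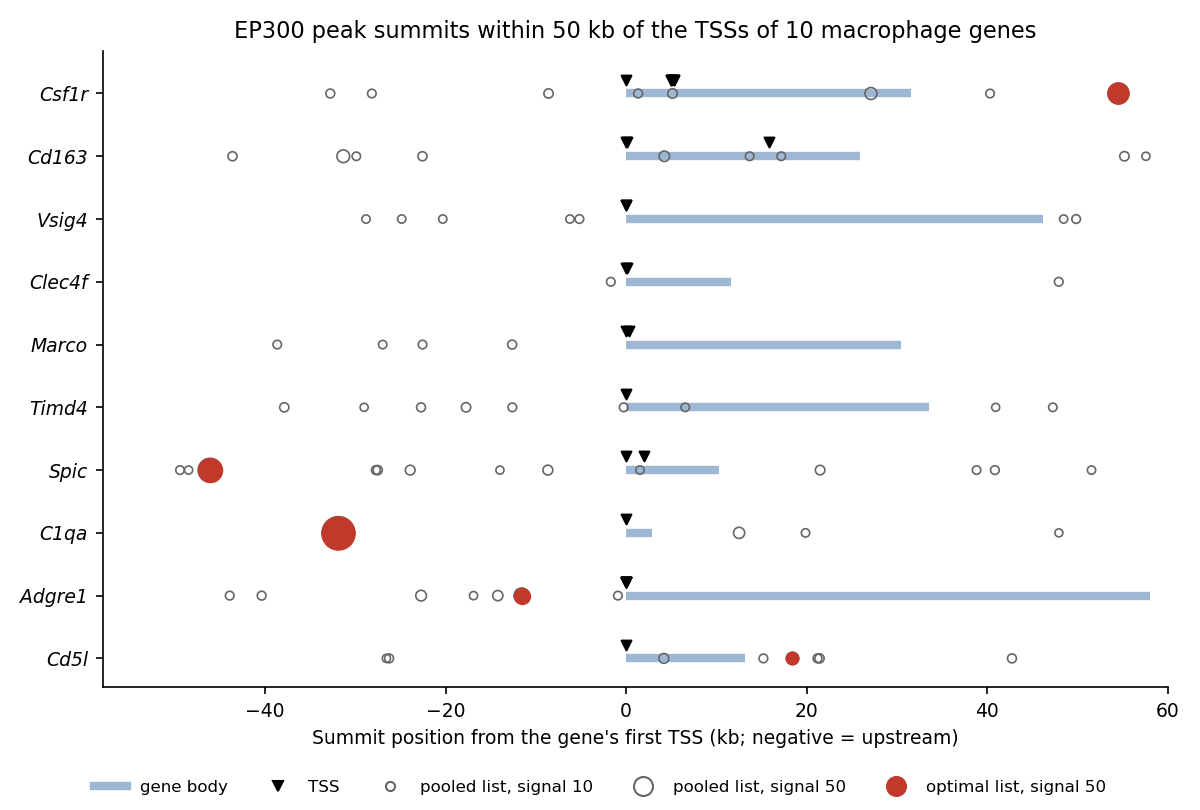
EP300 summits around the 10 genes, each row aligned at the gene's first TSS, with position in kb on the horizontal axis (negative is upstream in the direction of transcription). Blue bars are gene bodies, with that of Adgre1 drawn only to the edge of the plot, triangles are TSSs, red discs are the 5 summits of the optimal list, open circles are all summits of the list called on both replicates together, and circle area grows with the authors' signal value. Every red disc lies outside the gene bodies, and Cd163, Vsig4, Clec4f, Marco and Timd4 have open circles only.

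Adgre1 and Cd5l had the nearest summits, and the reference sequence around them is shown because these are the only member summits within 25 kb of a TSS. Each run reaches up to 100 bases to either side of its summit on GRCm38 (mm10), forward strand, cut short where it would enter an untranslated region. Capitals mark matches to the macrophage motifs PU.1/ETS (AGGAAGT), AP-1 (TGANTCA) and MAF (TGCTGA) on either strand. The Adgre1 run is chr17:57347022-57347222, and the Cd5l run is chr3:87376212-87376386.
Adgre1: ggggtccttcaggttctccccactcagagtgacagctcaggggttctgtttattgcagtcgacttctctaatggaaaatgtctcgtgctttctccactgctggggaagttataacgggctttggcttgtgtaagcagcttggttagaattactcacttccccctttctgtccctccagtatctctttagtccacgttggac
Cd5l: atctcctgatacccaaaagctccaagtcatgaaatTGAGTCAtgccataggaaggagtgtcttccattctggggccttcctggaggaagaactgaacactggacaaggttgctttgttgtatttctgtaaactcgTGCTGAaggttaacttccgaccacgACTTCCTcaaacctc
The Adgre1 run held 0 of the 12 motifs searched. The Cd5l run held AP-1 starting 65 bases before the summit, MAF starting 35 bases after it and PU.1/ETS starting 60 bases after it.

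Adgre1 encodes F4/80, the adhesion receptor long used to stain mouse macrophages. Its summit lay between genes at chr17:57346930-57347313, 11.6 kb upstream of the TSS. The signal was 31.5 in the optimal list, rank 16785 of 26844, below the median peak. Replicate 1 gave this place 18.1 (rank 22067 of its 299855 analysed peaks) and replicate 2 gave it 12.04 (rank 15365). A weaker peak 14.2 kb upstream of Adgre1 was called in both replicates, at 9.19 and 4.21, and was not in the optimal list. Within 10 kb of the Adgre1 TSSs replicate 2 had 0 peaks, and the highest of the 4 in replicate 1 was 6.29 at 0.898 kb.

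Csf1r encodes the receptor for CSF1 and IL-34 on which macrophage survival depends. Its only optimal summit within 50 kb lay 49.2 kb downstream of the last TSS, at chr18:61154927-61155310, in an exon of Hmgxb3 and 4.69 kb from a TSS of that gene. The signal was 58.7, rank 7550, with 46.8 in replicate 1 and 12.9 in replicate 2. Inside the Csf1r gene no peak reached the optimal list. At a Csf1r promoter replicate 1 had a peak of 7.14 (rank 108822), replicate 2 had 0 peaks within 1 kb, and the pooled list, called on both replicates together, had 11.2. An intronic peak 21.9 kb from a TSS was the highest of replicate 2 in the window, at 13.2, and it overlapped no peak of replicate 1. Close to it, 27.1 kb from the first TSS, the pooled list had a peak of 18.8. In the highest peaks of either replicate alone, as many as the optimal list holds, Csf1r had 2 summits within 50 kb. The nearest was at 22.9 kb in replicate 1 and at 21.9 kb in replicate 2. An exon of Pdgfrb, the neighbouring receptor gene, held a peak 22.9 kb upstream of Csf1r that was 17.0 in replicate 1 and 4.23 in replicate 2.

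Spic encodes an ETS-family transcription factor that iron-recycling macrophages need. The summit in its window lay 46.1 kb upstream at chr10:88730930-88731313, and it was the promoter of Arl1, a small GTPase gene of the Golgi, at 54 bases from that TSS. The signal was 77.0, rank 5154, with 59.8 in replicate 1 and 18.1 in replicate 2. Near Spic itself the highest pooled peak within 10 kb was 12.1, at 8.67 kb, and replicate 1 and replicate 2 had no overlapping peaks there. Both replicates called weak peaks 23.9 kb and 27.5 kb upstream, at 6.24 and 6.30 in replicate 1 and at 4.17 and 5.34 in replicate 2.

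Among the scavenger receptor genes, Cd5l encodes a secreted protein of macrophages, Cd163 the receptor for haemoglobin bound to haptoglobin, and Marco a receptor for bacteria and particles. The Cd5l summit lay 18.4 kb downstream of the TSS at chr3:87376120-87376503, at the promoter of Fcrl1, an Fc receptor-like gene, 75 bases from its TSS. Its signal was 19.05, rank 24554, the lowest of the 5 summits, and its IDR score was 574 where the others had 979 to 1000. Replicate 1 gave it 9.84 (rank 50680) and replicate 2 gave it 8.96 (rank 23586), so by replicate 1 alone it would not have been among as many peaks as the optimal list holds. It was the 1 member summit of 5 that the authors' conservative list did not hold.

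Cd163 and Vsig4 lay just outside the window. The nearest optimal summit to Cd163 lay 55.3 kb downstream of its last TSS, at a signal of 72.7, and the nearest protein-coding TSS to that summit was that of Pex5, a peroxisome import gene. Between genes, 31.3 kb upstream of Cd163, the pooled list had a peak of 21.5, with 14.7 in replicate 1 and 6.39 in replicate 2. That pooled value was higher than the 19.05 of the Cd5l summit, yet the peak was in neither IDR list. Cd163 was also the only member with an overlapping pair of replicate peaks within 10 kb, in its intron 4.19 kb from a TSS, at 7.56 in replicate 1, 4.91 in replicate 2 and 13.9 in the pooled list. Marco had no such pair within 50 kb, and its highest peaks in the window were 8.87 in replicate 1 and 5.81 in replicate 2. The optimal summit nearest to Marco was 237 kb away, in an intron of the metalloreductase gene Steap3, at 31.8.

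C1qa encodes a chain of C1q, which starts the classical complement pathway, and Vsig4 encodes the complement receptor CRIg that captures bacteria coated with C3 fragments. The C1qa window held the strongest of the 5 summits, 31.9 kb upstream at chr4:136930578-136930738, in an exon of the ephrin receptor gene Epha8. Its signal was 149.5, rank 1976, with 95.8 (rank 2011) in replicate 1 and 52.1 (rank 2037) in replicate 2. The same summit lay 37.6 kb from C1qc and 44.5 kb from C1qb, the genes for the other chains, so the 3 genes share 1 summit and are not separate cases. Within 10 kb of the C1qa TSS the pooled list had 0 peaks and replicate 2 had 0, while replicate 1 had 1 peak of 9.17 (rank 58391) at the C1qc promoter, 5.72 kb away. Both replicates had a peak at the C1qb promoter, 12.4 kb from the C1qa TSS, at 8.33 in replicate 1, 5.65 in replicate 2 and 16.1 in the pooled list, and it was not kept in the optimal list. Vsig4 had no peak called in both replicates within 50 kb. Its nearest optimal summit lay just outside the window, 53.6 kb downstream, with a signal of 50.9, 33.3 in replicate 1 and 16.1 in replicate 2, and the nearest protein-coding TSS to it was that of Vsig4.

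Clec4f encodes a galactose-binding lectin used to mark Kupffer cells in mice, and Timd4 encodes TIM-4, a phosphatidylserine receptor through which macrophages bind dying cells. Clec4f had no peak called in both replicates within 50 kb, and the highest in the window were 5.60 in replicate 1 and 6.02 in replicate 2. Its nearest optimal summit was 139 kb away, at the promoter of the sugar kinase gene Nagk, with a signal of 23.0. Timd4 had 1 such pair, in its own intron 15.8 kb from the TSS, at 5.10 in replicate 1 and 3.84 in replicate 2. The nearest optimal summit to Timd4 was 356 kb away, at the promoter of Havcr2, another gene of the TIM family, with a signal of 124.5. In the conservative list the summit nearest to Timd4 was 147 kb away. With only the highest peaks of replicate 1, as many as the optimal list holds, it was also 147 kb away. With those of replicate 2 it was 82.3 kb away. For Clec4f, Marco and Timd4 the distance to the nearest optimal summit was longer than for 80.5%, 86.3% and 89.9% of all genes.

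**Figure D2:**
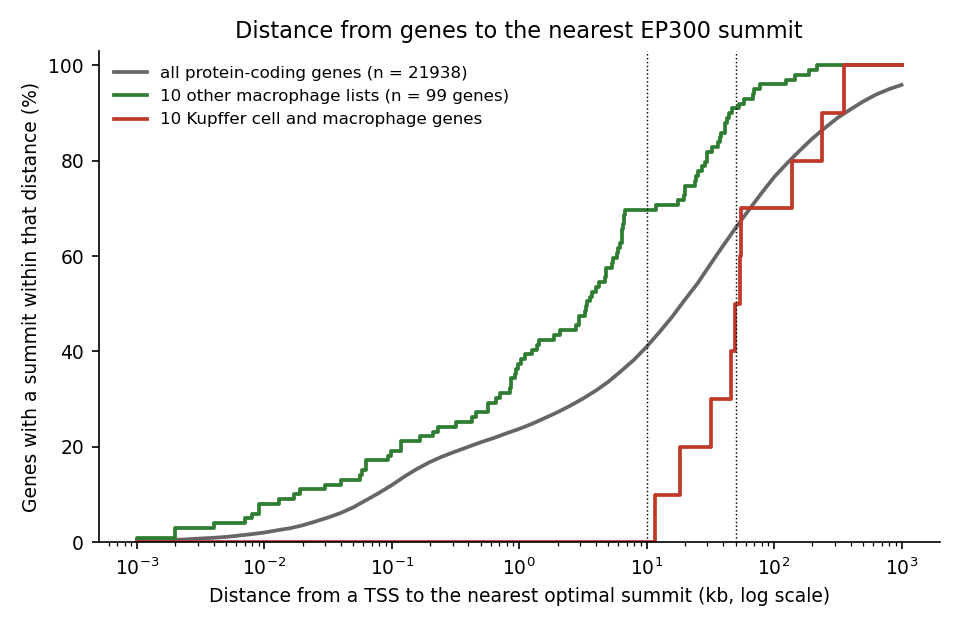
Share of genes (vertical axis, percent) with an optimal EP300 summit within a given distance of a TSS (horizontal axis, kb, log scale), for the 10 Kupffer cell and macrophage genes, the 99 genes of 10 other macrophage lists and all 21938 protein-coding genes, with dotted lines at 10 and 50 kb. The line of the 10 genes leaves 0 at 11.6 kb, the distance of Adgre1, and ends at 356 kb, that of Timd4.

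The replicate lists, which hold weak peaks as well as those kept in the optimal list, were read in the same way. Within 1 kb of a TSS, 0 of 10 members had a replicate 1 peak that overlapped a replicate 2 peak, against 37.8% of all genes. Within 10 kb the count was 1 of 10 (Cd163), against 63.8%, and within 50 kb it was 7 of 10, against 87.2%, with Vsig4, Clec4f and Marco left without. The 7 include the 5 members with an optimal summit, and pairs that were not in the optimal list were found at 6 members, Csf1r, Cd163, Timd4, Spic, C1qa and Adgre1. All of these counts and shares include peaks kept in the optimal list, so they are not a count of weak peaks alone. The highest pooled peak within 10 kb had a median signal of 8.77 over the 10 members, with Marco and C1qa entered as 0 because they had none, and of 16.8 over all genes. The highest such value among the members was the 13.9 of Cd163, which also lay under the median of all genes.

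All 5 member summits were matched by a peak in each replicate list at an overlap of at least 1 base, as were 95.7% of all optimal peaks. The share of the 5 was 80% with a reciprocal overlap of at least 50%. It was also 80% when only the highest peaks of each replicate were used, as many as the optimal list holds. The summits of both replicates lay within 60 bases of the optimal summit at each of the 5 places. The scales of the replicate lists may differ, so a ratio was read only against that of all peaks. Replicate 1 gave the higher value at all 5, and over the optimal list the median log2 ratio of replicate 1 to replicate 2 was 0.94 (SD 0.74 over 25702 matched peaks). The log2 ratio was 1.86 at the Csf1r summit, 1.72 at the Spic summit, 0.88 at the C1qa summit, 0.59 at the Adgre1 summit and 0.13 at the Cd5l summit. The ratio at the Csf1r and Spic summits was thus above that median by more than 1 SD, and at the Cd5l summit below it by more than 1 SD. All 5 ratios lay between the 5th and 95th percentiles of the matched peaks, -0.21 and 2.21. The 5 signals had a median of 58.7, and the median of their percentiles in the optimal list was 71.9. The 3 strongest of the 5 lay at or in Epha8, Arl1 and Hmgxb3, and the 2 nearest to a member, those of Adgre1 and Cd5l, were below the median peak.

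**Figure D3:**
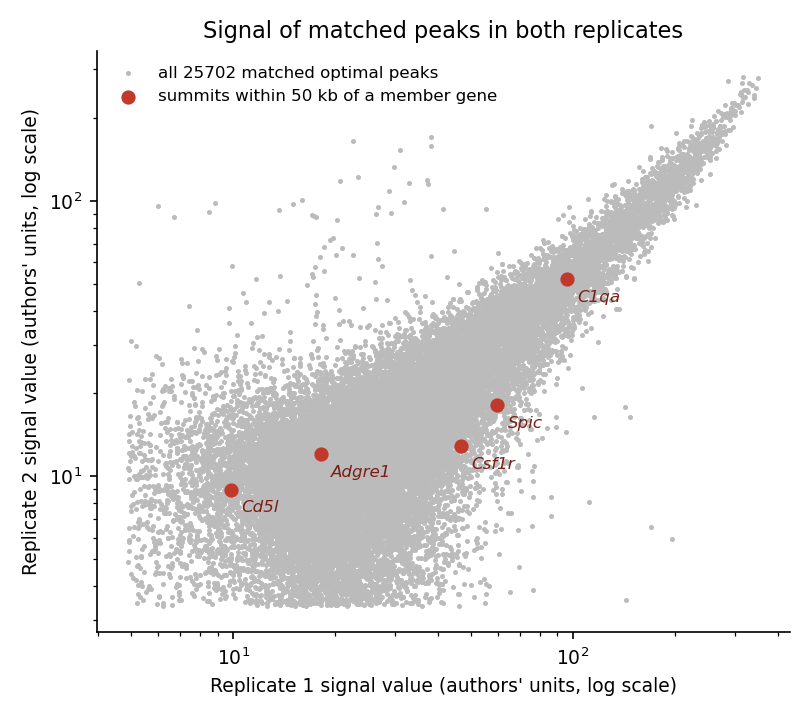
Authors' signal value in replicate 1 (horizontal axis) and replicate 2 (vertical axis), both on log scales, for the 25702 optimal peaks matched in both replicate lists (grey) and the 5 summits within 50 kb of a member gene (red, named by the gene). The C1qa summit stands highest, at 95.8 and 52.1, and the Cd5l summit lowest, at 9.84 and 8.96, and all 5 lie inside the grey cloud.

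Each motif of a macrophage factor was found at 0 or 1 of the 5 summits, and none was frequent in the optimal list at large. Such counts among 5 summits do not set them apart from the list. From 50 bases before to 50 bases after each summit, 12 motifs were searched on both strands, and a match is a description of letters only. PU.1/ETS (AGGAAGT), held by 5.95% of all optimal summits, was found at 0 of 5. The same count of 0 held for IRF (1.29% of all), the ETS-IRF composite (1.20%), CEBP (TTGCNNAA, 8.93%), AP-1 (TGANTCA, 5.62%) and RUNX (TGTGGT, 9.21%). The hepatocyte motifs HNF4 (CAAAGTNCA, 1.70%) and FOXA (TGTTTAC, 3.06%) were found at 0 of 5 as well. MAF (TGCTGA, 9.58%) was found at 1 of 5, the Cd5l summit.

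The letters AGATAA, the motif of the erythroid factor GATA1 and its relatives, were present at 2 of 5 summits and at 22.3% of all. At the Csf1r summit it started 3 bases after the summit, and at the C1qa summit 21 bases before it. The Csf1r summit also held an E-box (CAGNTG, 27.3% of all) starting 49 bases before the summit. The C1qa summit held CACGTG (2.26% of all), the motif of MITF and TFE lysosomal regulators, starting 44 bases before it. The Spic and Adgre1 summits held none of the 12 in this window. When the window was widened to 100 bases either way, the Cd5l summit gained PU.1/ETS, AP-1 and GATA. In that window 10.1%, 9.70% and 30.2% of all optimal summits held these motifs. The Spic and C1qa summits gained an E-box, which 44.9% of all held. Some of these motifs overlap in part, as the ETS-IRF composite and IRF share letters.

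Other genes of macrophages, drawn from 10 lists, were compared to see whether the lack of summits within 10 kb extended across the cell type. Of their 99 genes, 90 had an optimal summit within 50 kb and 69 within 10 kb, with a median nearest distance of 3.42 kb. These are 90.9% and 69.7% of the lists, against 65.9% and 41.0% of all genes, while the 10 Kupffer cell and macrophage genes were below those shares. The members also had fewer neighbours, a median of 1 other protein-coding gene with a TSS within 50 kb. That median was 2 for the 99 genes and 2 for all genes, and its part in the shares was not tested. The lists include genes that other liver cells also use, such as Epor in red cell precursors and Scarb1 in hepatocytes, and which cells the binding came from was not tested.

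The haem and iron recycling list covers the pathway by which macrophages return red cell iron to the blood. A summit lay within 10 kb of 11 of its 11 genes, against 41.0% of all genes. The highest were 346 in an intron of Ncoa4, the ferritin autophagy receptor, 205 at the promoter of Nfe2l2, the oxidative stress factor NRF2, 168 at the ferritin heavy chain gene Fth1, and 166 upstream of the haem oxygenase gene Hmox1. The iron exporter gene Slc40a1 had a promoter summit of 157. Both replicates held the Hmox1 peak, at 109 and 53.4, and the Slc40a1 peak, at 106 and 54.4. Each of these 5 genes thus had an optimal signal above all 5 member summits, the highest of which was that of C1qa. In the replicate lists the Fth1 peak was 92.8 in replicate 1, below the 95.8 of the C1qa summit, and 74.6 in replicate 2, above its 52.1.

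Of the macrophage transcription factor list, 13 of 17 genes had a summit within 10 kb and 16 of 17 within 50 kb. The shares of all genes were 41.0% and 65.9%. High values were 150.2 in an intron of Runx1, 127.9 near Rxra and 97.8 near Zeb2. Irf5, an inflammatory IRF gene, had none within 50 kb. Among the genes for factors of the macrophage programme itself, the Spi1 promoter had 38.9 (26.5 in replicate 1 and 10.4 in replicate 2). The Irf8 promoter had 53.3 (35.0 and 17.6). The highest values within 10 kb were 59.1 for Cebpb and 47.9 for Cebpa. Over all genes with a summit within 10 kb, the median of the highest value was 50.7. Maf, whose product restrains macrophage self-renewal, had no summit within 10 kb, and its nearest lay at 47.1 kb.

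The promoter summits of Slc40a1, Spi1 and Mrc1 and the Hmox1 peak are shown beside the Adgre1 and Cd5l sequences above. They come from genes of the macrophage lists where EP300 was called within 10 kb. Which cells of the bulk liver this binding came from was not tested. Capitals mark matches to the macrophage motifs and to RUNX, CEBP and E-box, all on GRCm38, forward strand. The Hmox1 run is the whole peak, chr8:75083919-75084015, 9.63 kb upstream of the TSS. The Slc40a1 run is chr1:45926521-45926721, the Spi1 run chr2:91082966-91083166 and the Mrc1 run chr2:14229229-14229391.
Hmox1: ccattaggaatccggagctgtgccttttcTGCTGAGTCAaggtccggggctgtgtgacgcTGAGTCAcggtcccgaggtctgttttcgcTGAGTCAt
Slc40a1: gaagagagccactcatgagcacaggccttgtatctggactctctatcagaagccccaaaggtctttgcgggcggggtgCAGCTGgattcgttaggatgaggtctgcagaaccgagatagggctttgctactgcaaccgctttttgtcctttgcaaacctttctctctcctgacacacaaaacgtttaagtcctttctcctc
Spi1: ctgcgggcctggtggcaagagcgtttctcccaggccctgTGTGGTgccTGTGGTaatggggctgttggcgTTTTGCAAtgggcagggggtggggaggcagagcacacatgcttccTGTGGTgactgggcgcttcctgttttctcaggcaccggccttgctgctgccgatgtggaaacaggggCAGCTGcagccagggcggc
Mrc1: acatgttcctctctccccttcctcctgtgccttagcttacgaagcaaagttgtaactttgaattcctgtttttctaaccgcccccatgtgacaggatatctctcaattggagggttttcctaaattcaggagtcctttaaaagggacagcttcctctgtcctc
The Hmox1 peak held AP-1 at 3 places, the first of them merged with a MAF match. The Spi1 run held RUNX at 3 places, CEBP once and an E-box once, the Slc40a1 run held an E-box, and the Mrc1 run held none.

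In the scavenger, Fc and pattern recognition list 9 of 11 genes had a summit within 10 kb, against 41.0% of all genes. Among them were 76.9 near Scarb1, 50.8 near Cd14 and 49.4 near Siglec1. The mannose receptor gene Mrc1 had a promoter summit of 21.4, with 14.5 in replicate 1 and 5.09 in replicate 2, close to the level of the Cd5l summit. The list of C1q chains and complement receptors had 1 of 7 within 10 kb, 16.9 in an intron of the C5a receptor gene C5ar1. Within 50 kb it had 7 of 7, against 41.0% of all genes within 10 kb and 65.9% within 50 kb. In that count C1qb and C1qc share the Epha8 summit, and Itgam and Itgax share 1 other summit, so these are not separate cases.

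The growth factor and receptor list had 5 of 9 genes with a summit within 10 kb and 8 of 9 within 50 kb. Over all genes the shares were 41.0% and 65.9%. The ligand of the Csf1r receptor, Csf1, had 62.3 in its own intron, 6.89 kb from a TSS. The other high values were 124.6 upstream of Csf2rb, 68.8 near Tgfb1 and 42.9 near Tgfbr2, and Tgfbr1 had no summit within 50 kb. Il34, which encodes the other ligand, had none within 10 kb and its nearest at 41.0 kb.

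Engulfment genes had 6 of 12 within 10 kb and 9 of 12 within 50 kb, close to the 41.0% and 65.9% of all genes. The highest was 402 in an intron of Cd36, a receptor for fatty acids and dying cells that other cell types also express. Dnase2a, the nuclease that digests engulfed red cell nuclei, had 182 within 10 kb, but that summit was the promoter of Klf1, the erythroid factor. Axl had 61.2 at the promoter of the neighbouring gene Hnrnpul1, and Stab1 had 47.5 at its own promoter. Itgav, Mfge8 and Tyro3 had none within 50 kb.

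Lysosome and pan-macrophage genes had 10 of 12 within 10 kb and 11 of 12 within 50 kb, against 41.0% and 65.9% of all genes. The highest were 330 upstream of Ctss, 142 near Lgmn, 139 near Lamp1 and 64.4 near Ctsb, and Cst3 had none within 50 kb. Erythroblastic island genes had 6 of 7 within 10 kb, against 41.0% of all genes. They were led by the integrin gene Itga4 at 379, Cd47 at 373, Icam4 at 168 and Epor at 152, genes that red cell precursors express. Vcam1, the macrophage side of the contact with Itga4, had none within 10 kb and its nearest at 32.7 kb, with a signal of 26.5.

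A further list of 6 Kupffer cell genes was closest in kind to the members. Of these, 4 of 6 had a summit within 10 kb, against 41.0% of all genes. The highest, 40.7, lay in an exon of Clec1b, nearest to a TSS of Clec9a, and was above the optimal list's median of 38.3. The others were below that median, 25.2 at the Fcna promoter, 23.8 upstream of Hpgd and 20.5 near Il18bp. The last of these lay in an intron of Rnf121, which also had the nearest TSS. Sdc3 had no summit within 50 kb. Monocyte genes had 4 of 7 within 10 kb, against 41.0% of all genes, with 124.6 near Ccr2, 39.7 near F13a1 and 31.2 near Plac8. Neither Ly6c2 nor Vcan had a summit within 50 kb. Among the other cell types, a summit lay within 10 kb of 7 of 10 sinusoidal endothelial genes and 6 of 10 neutrophil granule genes. For lymphoid genes the count was 2 of 10, and the share of all genes was again 41.0%.

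**Figure D4:**
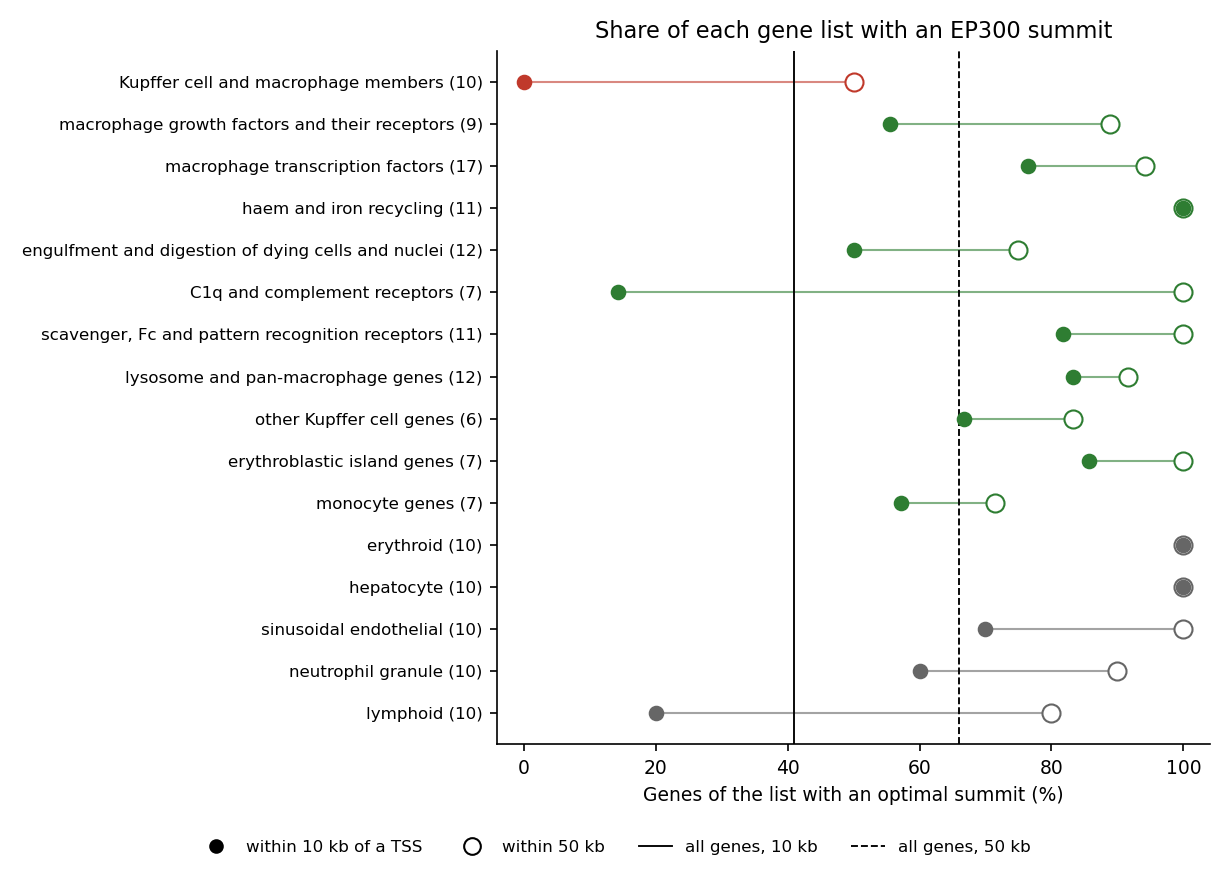
Share of the genes of each list (percent, horizontal axis) with an optimal EP300 summit within 10 kb of a TSS (filled) and within 50 kb (open), with the number of genes in parentheses. Red is the set of 10 Kupffer cell and macrophage genes, green the 10 other macrophage lists, grey 5 lists of other cell types, and the vertical lines are all protein-coding genes (41.0% and 65.9%). The red set starts at 0 and ends at 50%, left of both lines for its distance, and the nearest by the 10 kb share are the C1q and complement receptor list (1 of 7) and the lymphoid list (2 of 10).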

How the data were processed

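EP300 ChIP-seq of newborn mouse liver was analysed from 5 peak lists on mm10: 1 per replicate, 1 pooled, and the optimal and conservative IDR lists. Per the file headers and deposited descriptions, each was made by the authors from aligned reads with a control. Aligner, caller, IDR threshold and tool versions stay unnamed (not given in the sources used here). The signal value deposited by the authors has no stated scale. In the optimal list it equals that of the pooled list. Column 9 of the deposited replicate lists is a −log10 q-value. In the deposited pooled and IDR lists that column falls below 0 for 572 optimal peaks and was treated as a score, like the authors' IDR score. Neither changed a count here.

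Of 26883 optimal peaks, the 26844 on chromosomes 1 to 19 and X were used, and of 23700 conservative peaks 23673. Summits were set against the TSSs of all transcripts of protein-coding genes in GENCODE M21. On 20 of 20 chromosomes every peak ended inside the GRCm38 sequence. A promoter is within 1 kb of a TSS. Peaks were matched by an overlap of at least 1 base. Of the listed symbols, 1 (Clec7a) had no protein-coding match and 1 (Tf) was found by its current symbol, Trf. Named genes were all members, their neighbours, and in each further list up to 4 genes with the highest summit within 10 kb and up to 3 with none within 50 kb. Slc40a1, Spi1, Irf8, Cebpa, Cebpb, Mrc1, Maf, Il34, Vcam1 and C1qb and C1qc were named outside this rule, after their values were seen. Some genes that the rule names are not reported here. The members and lists were chosen with earlier results of these data known. No test was run, since there is 1 group. The placing of summits was tested on simulated peaks. The files held 0 columns of other series. Python 3.11.15, numpy 2.4.6, pandas 2.3.3 and matplotlib 3.10.9 were used.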

Additional observations from a re-analysis of the deposited data

How the results depend on the processing

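Of 47 alternative values for the main counts and shares, 28 stayed within 1.5 times the count or within the spread, and 19 moved. With a replicate left out, only the highest peaks of the other replicate were used, as many as the optimal list holds. No member had a summit within 10 kb in these cut lists, in either IDR list or with either TSS set. The full replicate and pooled lists did hold weaker peaks there, as given above. In the optimal list 2 members had a summit within 20 kb (Adgre1 and Cd5l). The 5 members with a summit within 50 kb became 3 in the highest 50% of the list and 2 at 25 kb, and 4 to 5 when either replicate was left out. Cd5l was lost without replicate 2 and in the conservative list. The 5 summits became 3 in the highest 50%, 2 at 25 kb and 12 at 100 kb, and 5 to 7 with a replicate left out. Members nearest to their own summit numbered 0 in the highest 50% and 2 at 100 kb, and 1 to 2 with a replicate left out (2 without replicate 2). The median percentile of 71.9 became 23.0 at 25 kb and 49.7 at 100 kb, and 48.2 to 77.9 with a replicate left out (48.2 without replicate 1). The share of all genes within 50 kb was 62.9% in the conservative list, 52.7% in the highest 50%, 64.4% with coding TSSs, 54.2% at 25 kb and 76.5% at 100 kb, and 66.9% to 67.2% with a replicate left out. In each of these the cause was not tested, apart from the window or list being smaller or larger by construction. Of 12 motif counts, 3 moved with the wider window. No paired analysis was possible because the study has 1 group. Depth is unknown, so a missing summit does not show absent binding, and with 5 summits each count moves by large steps.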
